A study of Mus musculus with 7 samples.

Results

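The annexin genes Anxa1, Anxa2, Anxa3, Anxa4, Anxa5, Anxa6, Anxa7, Anxa8 and Anxa11 were taken by name from 2 tables of gene counts, as 9 of the 24394 gene names listed. All 9 had a row in the first table and 8 in the second, whose 13236 names did not include Anxa11. Expression was measured by 3' mRNA sequencing of cells sorted from female BALB/c mice, with 7 libraries and 1 library per group, which leaves every difference without replicates and without a p-value. In the first table, pCAF (podoplanin-positive) and sCAF (podoplanin-negative) were cancer-associated fibroblast sorts from mammary tumours of luciferase-labelled 4T1 cells, a mouse mammary carcinoma line. NMF was stroma of the normal mammary fat pad of untreated mice 8 weeks old. These 3 sorts excluded cells bearing Ter119 (erythroid), CD45 (leukocyte) or EpCAM (epithelial). The second table held 4 sorts from tumours of GFP-labelled 4T1 cells, again without Ter119+ or CD45+ cells and sorted on GFP and EpCAM as GFP+ EpCAM+, GFP+ EpCAM-, GFP- EpCAM+ and GFP- EpCAM- cells. Each tumour grew from 100000 injected cells for 4 weeks, in mice aged 12 weeks at collection. How many animals a library represents is not stated in the labels. The enzymes used for dissociation and the age of the mice differed between fat pad and tumour, and neither can be told apart from the comparison with NMF.

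Annexins are proteins that bind negatively charged membrane lipids when calcium rises, through a conserved core of repeats, while their variable amino-terminal ends set the partners of each member. They act in membrane traffic, in the repair of torn plasma membrane and in the link between membrane and actin. Anxa1 and Anxa2 are known for roles in inflammation and in cell-surface proteolysis, and several members have been studied in breast carcinoma.

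The regions upstream of Anxa8, the member with the widest spread between libraries, and of Anxa2, the member with the most counts in every library, are printed as examples. Both are from RefSeq on build GRCm38.p6, plus strand, written 5' to 3', and stop before the first annotated exon. The Anxa8 stretch is chr14:34085729-34085978 (250 bases) and the Anxa2 stretch is chr9:69453433-69453619 (187 bases). Capitals mark matches on either strand to 3 motifs. The GC box was searched as GGGCGG. The TATA box was searched as TATAAA. The AP-1 motif was searched as TGANTCA.
Anxa8: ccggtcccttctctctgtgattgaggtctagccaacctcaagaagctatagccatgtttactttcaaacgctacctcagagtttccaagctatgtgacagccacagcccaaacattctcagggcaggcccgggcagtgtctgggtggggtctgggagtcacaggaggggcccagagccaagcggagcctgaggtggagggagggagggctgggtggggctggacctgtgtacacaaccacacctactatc
Anxa2: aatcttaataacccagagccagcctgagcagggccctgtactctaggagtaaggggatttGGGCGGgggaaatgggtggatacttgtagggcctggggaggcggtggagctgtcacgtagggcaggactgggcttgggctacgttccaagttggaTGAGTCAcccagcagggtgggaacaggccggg
The Anxa8 stretch held no match to any of the 3 motifs. The Anxa2 stretch held 1 GC box and 1 AP-1 match, which do not overlap, and the rest of its window, inside an annotated exon, held 2 more GC boxes and 1 TATA box. Among 32851 promoter windows of 250 bases before the start, 32.7% held a GC box, 12.4% a TATA box and 6.75% an AP-1 match. Promoter windows matched 7 of the 9 members, all but Anxa3 and Anxa6. A TATA box lay 32 bases before the start of Anxa1, the window of Anxa11 held 3 GC boxes, the 2 windows of Anxa7 held 4 and 1, and the windows of Anxa4 and Anxa5 held no match.

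The libraries totalled between 436051 (pCAF) and 2590144 (sCAF) counts. Levels are given in normalised CPM, counts scaled by an effective library size from edgeR's TMM method within each table, and are not set in ratio across the tables. As 3' sequencing reads mainly the end of each transcript, levels of different genes were not divided by length. Summed levels of 8 fibroblast markers were 63308 CPM in pCAF, 247 in sCAF (Lum and Pdpn at 0) and 38101 in NMF. Those of 8 epithelial markers were 67.3 CPM in pCAF, with 5 of 8 at 0 (Epcam and Cdh1 among them), 3965 in sCAF and 64.9 in NMF. The sCAF library therefore went against its label as fibroblasts, so the name below is that of the library labelled sCAF. In the second table the epithelial sums were 6087 in GFP+ EpCAM+, 3066 in GFP+ EpCAM-, 9808 in GFP- EpCAM+ and 1005 in GFP- EpCAM-. GFP- EpCAM- carried the fibroblast (4460.5 CPM), endothelial (8376 CPM) and pericyte and smooth muscle (4119 CPM) markers, against fibroblast sums of 37.9 to 137 and endothelial sums of 34.6 to 183 in the other 3 libraries. Its adipocyte sum was 2585 CPM, against 8.17 to 74.0 in those libraries. NMF carried adipocyte (1937 CPM) and Schwann cell (1052 CPM) markers, against 2.49 and 17.4 CPM in pCAF and 75.7 and 36.5 CPM in sCAF. In sorted bulk libraries, fewer cells of a type and less RNA per cell cannot be told apart.

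Annexins were abundant in all 7 libraries, and 3 members supplied most of the counts. Summed over the members, they stood at 6334 CPM in pCAF (95% Poisson counting interval 6090 to 6585), 7689 in sCAF (7584 to 7795) and 3673 in NMF (3567 to 3781). In the second table the sums were 7731 in GFP+ EpCAM+ (7622 to 7841), 6098 in GFP+ EpCAM- (5993 to 6205), 7819 in GFP- EpCAM+ (7684 to 7956) and 4638 in GFP- EpCAM- (4522 to 4758). The lowest sum in each table was that of the library without tumour (NMF) or without GFP and EpCAM (GFP- EpCAM-). Anxa2, Anxa1 and Anxa5 together took 85.4% of the annexin counts in pCAF, 83.6% in sCAF and 69.3% in NMF, and between 76.6% and 77.3% in the 4 libraries of the second table.

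**Figure D1:**
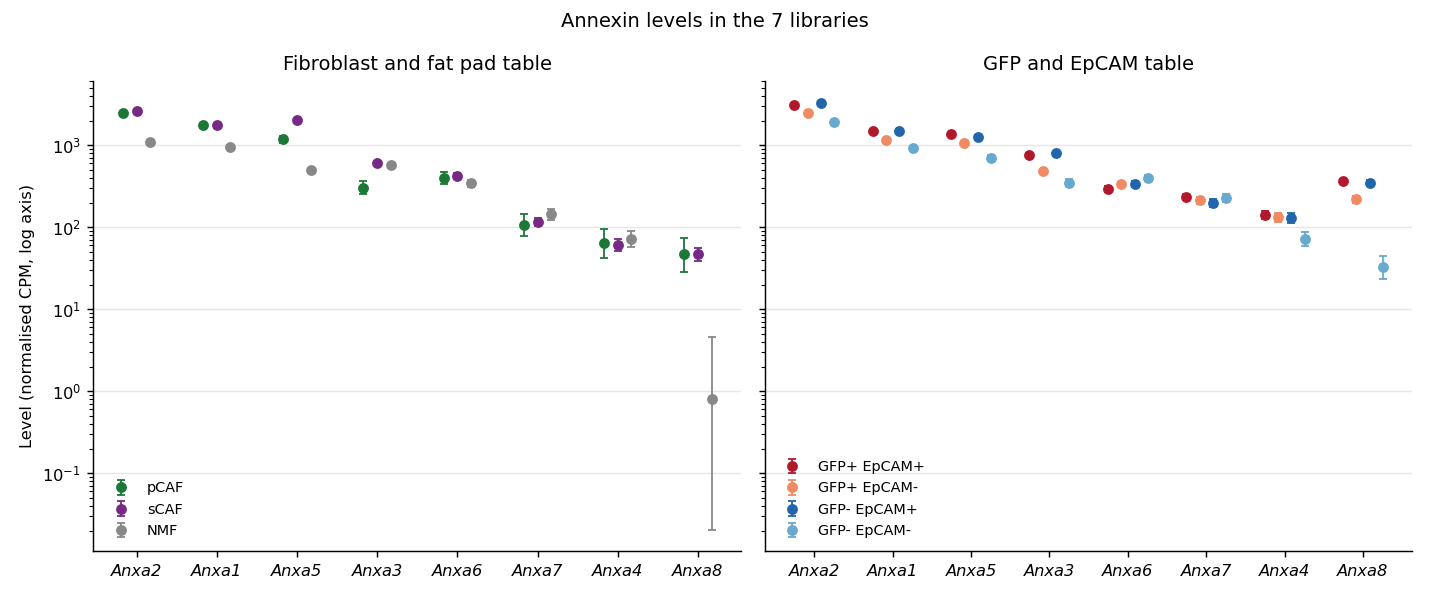
Level of 8 annexins (normalised CPM, log axis) in the 3 libraries of the first table and the 4 of the second, with 95% Poisson counting intervals, 1 library per point. Anxa2 tops every library, while Anxa8 is lowest in NMF (0.812 CPM) in the first table and in GFP- EpCAM- (32.6 CPM) in the second.

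Anxa2, which pairs with S100A10 at the plasma membrane and there binds plasminogen and its activator, led in every library. It had 2470.4 CPM in pCAF, 2605 in sCAF and 1110.6 in NMF. In the second table it had 3070.5 CPM in GFP+ EpCAM+, 2492 in GFP+ EpCAM-, 3244 in GFP- EpCAM+ and 1930.0 in GFP- EpCAM-. Among the 13236 genes listed in both tables, its rank lay between 24 (GFP+ EpCAM+) and 110 (NMF). Anxa1, an inhibitor of inflammation that glucocorticoids induce, had 1757 CPM in pCAF, 1769 in sCAF and 942 in NMF. Its levels were 1503 CPM in GFP+ EpCAM+, 1163 in GFP+ EpCAM-, 1504 in GFP- EpCAM+ and 921 in GFP- EpCAM-. Both genes were lowest in NMF and in GFP- EpCAM- of their table, and pCAF and sCAF did not differ beyond counting error for either. Anxa5, the phosphatidylserine binder used as a stain for dying cells, had 1184 CPM in pCAF, 2051 in sCAF and 493 in NMF, with no overlap of counting intervals among the 3. It had 1371 CPM in GFP+ EpCAM+, 1059.6 in GFP+ EpCAM-, 1262 in GFP- EpCAM+ and 703 in GFP- EpCAM-.

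The shares of each member within the annexin counts, which need no scaling between libraries, differed between NMF and the tumour sorts for several members. Anxa1 took 27.7% in pCAF (26.0 to 29.5) and 25.6% in NMF (24.4 to 26.9), intervals that overlapped. Its share in sCAF lay below that in NMF, at 23.0% (22.4 to 23.6). Anxa3 took 4.80% of annexin counts in pCAF (exact 95% Clopper-Pearson interval 4.00 to 5.71), 7.98% in sCAF (7.61 to 8.36) and 15.5% in NMF (14.4 to 16.6). Anxa5 took 18.7% in pCAF (17.2 to 20.3), 26.7% in sCAF (26.1 to 27.3) and 13.4% in NMF (12.4 to 14.4), so NMF was the 1 library in which Anxa3 outnumbered Anxa5. Anxa2 took 39.0% in pCAF, 33.9% in sCAF and 30.2% in NMF. In the second table Anxa2 ranged from 39.7% to 41.6% and Anxa1 from 19.1% to 19.8% over its 4 libraries. Anxa5 took 17.7% in GFP+ EpCAM+ (17.2 to 18.3) and 15.2% in GFP- EpCAM- (14.3 to 16.1), its highest and lowest shares. Anxa3 ranged from 7.52% (6.86 to 8.22, GFP- EpCAM-) to 10.2% (9.64 to 10.7, GFP- EpCAM+), and Anxa7 from 2.54% (2.28 to 2.83, GFP- EpCAM+) to 4.96% (4.42 to 5.54, GFP- EpCAM-). Anxa6 took 3.79% in GFP+ EpCAM+, 5.47% in GFP+ EpCAM-, 4.30% in GFP- EpCAM+ and 8.64% in GFP- EpCAM- (7.94 to 9.38). Anxa8 took 4.76%, 3.60% and 4.47% in the same first 3 libraries and 0.704% in GFP- EpCAM- (0.507 to 0.950).

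**Figure D2:**
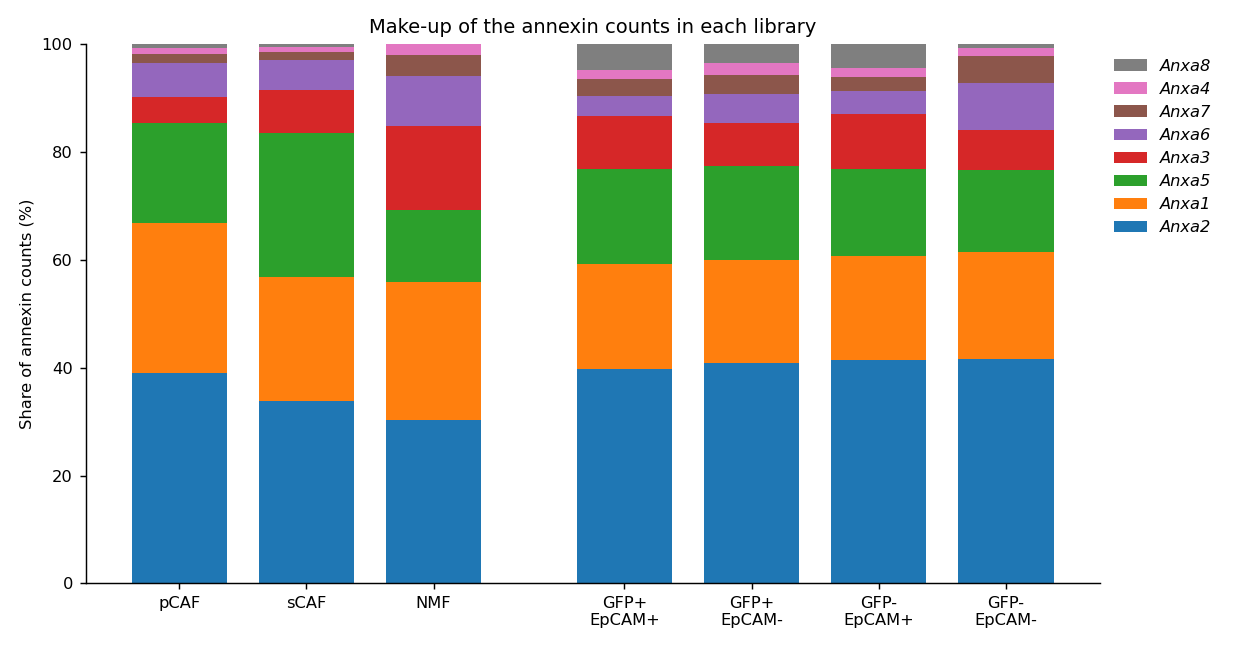
Share of each annexin in the summed annexin counts (percent, stacked bars, 1 library per bar). Anxa2, Anxa1 and Anxa5 fill between 69.3% (NMF) and 85.4% (pCAF), and Anxa3 is widest in NMF at 15.5%.

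The first comparisons set each library labelled as cancer-associated fibroblasts against the normal fat pad, though the markers of sCAF went against that label. Ratios of normalised counts were given an exact 95% counting interval, and calls were made where that interval lay wholly above or below 2-fold. In pCAF relative to NMF, 3 of the 8 annexins with at least 20 counts were called higher and none lower, where 7.58% of 8129 genes were called higher and 7.91% lower. Anxa5 was 2.40-fold higher (2.13 to 2.71), Anxa2 2.22-fold (2.05 to 2.42) and Anxa8, on 19 counts in pCAF against 1 in NMF, 58.3-fold (9.27 to 2424). Anxa8 reached the 20-count minimum through the pCAF library, so it could pass only by differing. The calls of Anxa2 and Anxa5 were lost when libraries were scaled by total counts, which left 1 annexin called. Under a 4-fold rule Anxa8 alone among the annexins was called, where 2.85% of genes were. Adipocyte, Schwann cell and endothelial marker sums (2315 CPM in NMF, 49.9 in pCAF for the last) moved with this comparison, and their part was not tested. Anxa1 stood at a ratio of 1.87 (1.70 to 2.05) and Anxa3 at 0.535 (0.438 to 0.649), neither wholly beyond 2-fold. The annexin median log2 ratio, Anxa8 included, was 0.56, against -0.20 for all genes. With a minimum of 100 counts, which left Anxa8 out, it was 0.22, against -0.06 for all genes.

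In sCAF relative to NMF, 3 of 8 were again called higher and none lower, with 15.9% of 9815 genes called higher and 17.3% lower. Anxa5 was 4.16-fold higher (3.83 to 4.53), Anxa2 2.35-fold (2.21 to 2.49) and Anxa8, with 125 counts against 1, 58.0-fold (10.2 to 2309). Here too Anxa8 reached the minimum through the tumour library. Anxa1 stood at 1.88 (1.76 to 2.0) and Anxa3 at 1.08 (0.988 to 1.18). The annexin median, Anxa8 included, was 0.61, against 0.17 for all genes. Under the 4-fold rule Anxa8 alone was called, where 5.77% of genes were. NMF is shared by these comparisons. Epithelial markers moved with this comparison, with summed levels of 3965 CPM in sCAF and 64.9 in NMF, and their part in the annexin ratios was not tested.

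Between the podoplanin-positive and podoplanin-negative sorts, none of 8 annexins was called in either direction, where 11.5% of 8915 genes were called higher and 11.2% lower in pCAF. Anxa3 had the lowest ratio, 0.496 (0.409 to 0.596), with 304 CPM in pCAF and 614 in sCAF. Anxa5 stood at 0.577 (0.525 to 0.634). Anxa8 was at 47.4 CPM in pCAF and 47.1 in sCAF, a ratio of 1.01 (0.586 to 1.64), in libraries whose fibroblast marker sums were 63308 and 247 CPM. The annexin median was -0.09, against -0.44 for all genes, and changed sign with DESeq2 size factors (0.06).

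**Figure D3:**
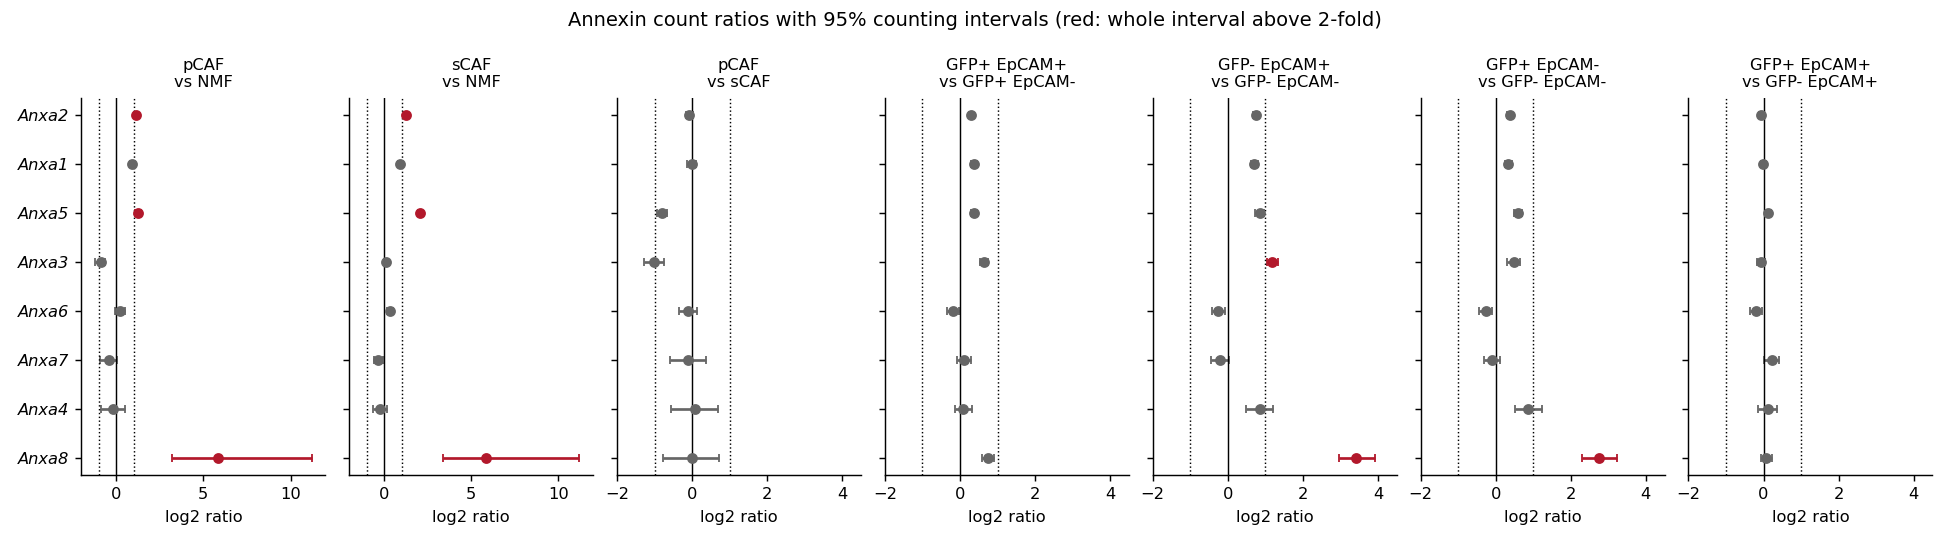
Log2 ratio of normalised counts for 8 annexins in 7 comparisons (1 library per group), with 95% counting intervals. Dotted lines mark 2-fold, red points have the whole interval above it, and Anxa8 lies farthest right in both comparisons with NMF and both with GFP- EpCAM-. The horizontal axis is wider in the panels with NMF.

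In the tumours of GFP-labelled cells, Anxa8 divided the 4 sorts. It had 368 CPM in GFP+ EpCAM+ (345 to 393), 220 in GFP+ EpCAM- (200 to 241), 349 in GFP- EpCAM+ (321 to 379) and 32.6 in GFP- EpCAM- (23.5 to 44.1). The GFP- EpCAM- library stood apart from the other 3, while GFP+ EpCAM+ and GFP- EpCAM+ did not differ beyond counting error. Anxa8, first found as a vascular anticoagulant, is expressed in mouse mammary ducts and in basal-like human breast cancers.

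Among GFP- cells, 2 of 8 annexins were called higher in EpCAM+ than in EpCAM- cells and none lower, where 7.33% of 9518 genes were called higher and 12.7% lower. Anxa8 was 10.7-fold higher (7.82 to 15). Anxa3, whose product is linked to endothelial migration and to tumour progression, was 2.28-fold higher (2.04 to 2.54), a call that was lost with DESeq2 size factors. Under the 4-fold rule Anxa8 alone was called, where 2.25% of genes were. Anxa5, Anxa4, Anxa2 and Anxa1 had ratios of 1.80, 1.80, 1.68 and 1.63, short of a call. The annexin median was 0.80, against 0.03 for all genes.

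Among GFP+ cells the same EpCAM contrast gave no call for 8 annexins, where 0.736% of 9100 genes were called higher and 0.396% lower. Anxa8 stood at 1.68 (1.50 to 1.88), Anxa3 at 1.55 (1.44 to 1.68) and Anxa1, Anxa5 and Anxa2 at 1.29, 1.29 and 1.23. The annexin median was 0.34, against 0.01 for all genes. Anxa8 and Anxa3 had the 2 largest ratios of the 8 in both EpCAM contrasts, and a difference between the contrasts was not tested.

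For the GFP contrast in EpCAM- cells, 1 of 8 annexins was called, Anxa8, 6.73-fold higher in GFP+ (4.90 to 9.47), where 5.55% of 9551 genes were called higher and 14.1% lower. It passed the 4-fold rule as well, as 1.02% of genes did. Anxa4 stood at 1.82 (1.44 to 2.33), Anxa5 at 1.51 (1.39 to 1.63) and Anxa2 at 1.29 (1.23 to 1.35). In EpCAM+ cells none of 8 was called, where 0.216% of 9241 genes were called higher and 4.18% lower. All 8 ratios there lay between 0.873 (Anxa6) and 1.16 (Anxa7), with Anxa8 at 1.05 (0.948 to 1.17). The annexin medians were 0.42 in EpCAM- cells (all genes 0.03) and 0.04 in EpCAM+ cells (all genes 0.01). Endothelial, fibroblast and adipocyte marker sums, 8376, 4460.5 and 2585 CPM in GFP- EpCAM-, moved with the contrasts against that library, and their part was not tested.

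**Figure D4:**
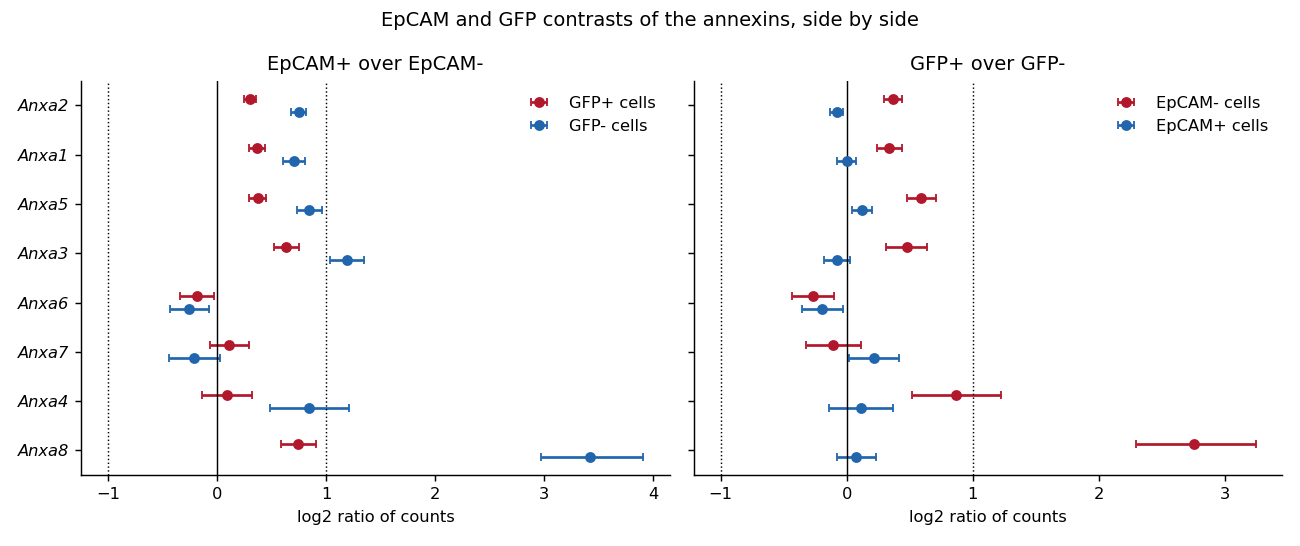
Log2 ratios of 8 annexins for EpCAM+ over EpCAM- in GFP+ and in GFP- cells (left) and for GFP+ over GFP- in EpCAM- and in EpCAM+ cells (right), with 95% counting intervals and dotted lines at 2-fold. The ratios against the GFP- EpCAM- library reach 10.7-fold and 6.73-fold for Anxa8, and the GFP contrast in EpCAM+ cells stays between 0.873 and 1.16.

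Anxa6, Anxa7 and Anxa4 were called in none of the 7 comparisons. Anxa6, a large annexin with a repeated core that binds cholesterol-rich membrane, had 399 CPM in pCAF, 428 in sCAF and 343 in NMF. In the second table it had 293 CPM in GFP+ EpCAM+, 334 in GFP+ EpCAM-, 336 in GFP- EpCAM+ and 401 in GFP- EpCAM-, the 1 member whose highest level there was in GFP- EpCAM-. Counts of Anxa3 per count of Anxa6, free of scaling, were 2.57 in GFP+ EpCAM+ (2.36 to 2.80), 1.45 in GFP+ EpCAM- (1.32 to 1.60), 2.36 in GFP- EpCAM+ (2.14 to 2.62) and 0.870 in GFP- EpCAM- (0.765 to 0.989). That ratio was 0.763 in pCAF (0.597 to 0.971), 1.44 in sCAF (1.33 to 1.55) and 1.66 in NMF (1.47 to 1.88).

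Anxa7, or synexin, which promotes vesicle fusion, had 107 CPM in pCAF, 115 in sCAF and 144 in NMF, where sCAF and pCAF did not differ beyond counting error. It had 231 CPM in GFP+ EpCAM+, 214 in GFP+ EpCAM-, 199 in GFP- EpCAM+ and 230.0 in GFP- EpCAM-. No neighbours in order of level differed beyond counting error, but the highest differed from the lowest, at a ratio of 1.16 (1.01 to 1.34). Anxa4, an annexin of epithelial membranes, had 64.8 CPM in pCAF, 61.0 in sCAF and 72.3 in NMF, on 26 to 162 counts, with no neighbours separated. In the second table its levels were 140 CPM in GFP+ EpCAM+, 132 in GFP+ EpCAM-, 130 in GFP- EpCAM+ and 72.3 in GFP- EpCAM-, the last below the other 3. Anxa11, which tethers RNA granules to lysosomes, was listed at 0 in all 3 libraries of the first table. At this depth 3 counts would be 7.48 CPM in pCAF, 1.13 in sCAF and 2.44 in NMF. Anxa11 (GRCm38 chromosome 14, 25842156 to 25886804) overlaps an antisense gene, Anxa11os. Genes on the other strand also overlap Anxa8 (A630023A22Rik, protein coding), Anxa2 (Gm16144, antisense), Anxa1 (1500015L24Rik) and Anxa4 (Gm44036). As strand handling is not stated, reads of these pairs cannot be told apart, and the counts of all 5 members, the 0 of Anxa11 included, are uncertain to that extent. Genes on the same strand overlap Anxa3 (Gm42603), Anxa5 (Mir7009) and Anxa2 (Mir3109), and how reads shared with them were counted is not stated.

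The genes most like a member across all 7 libraries were found by the root mean square difference of log2(CPM + 1) centred within each table, over 5719 candidate genes with at least 100 counts in each table. Anxa2 lay nearest to Alg5 (0.063), a glucosyltransferase gene of N-glycan assembly, then to Gnl2 (0.088) and next to Anxa1 (0.093). No other pair of members was that close, the next being Anxa6 and Anxa7 at 0.239, and Anxa8 lay at 1.25 or more from each of the others. Anxa5 was nearest to Gtf2f2, Cops5 and Hps1 (0.063, 0.083 and 0.120). For Anxa8 the nearest was Gpr39 (0.358), a zinc-sensing receptor, and Prkg2 (0.468), a cyclic GMP-dependent kinase, was also among the nearest, both with 1 count in NMF. These values are descriptions over 7 libraries that differ in depth and cell make-up.

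The genes of 4 S100 proteins that bind annexins were read in the same comparisons. In pCAF relative to NMF, 2 of 4 were called higher, S100a4 5.30-fold (3.99 to 7.07) and S100a6 4.11-fold (3.83 to 4.42), where 7.58% of all genes were called higher. In sCAF relative to NMF 3 of 4 were called higher (15.9% of all genes), and S100a10, the partner of Anxa2, was 2.53-fold higher (2.33 to 2.74). The same 3 of 4 genes were called higher in GFP- EpCAM+ and in GFP+ EpCAM- than in GFP- EpCAM-, with S100a10 at 2.71-fold (2.53 to 2.91) and 2.19-fold (2.05 to 2.36), where 7.33% and 5.55% of all genes were called higher. The list medians were 1.60, 1.85, 1.86 and 1.44 in these 4 comparisons, against -0.20, 0.17, 0.03 and 0.03 for all genes. In the other 3 comparisons the list gave 1 call, S100a4, lower in pCAF than in sCAF, where 11.2% of all genes were called lower.

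Counts of Anxa2 per count of S100a10 were 3.27 in pCAF (2.87 to 3.73), 1.77 in sCAF (1.70 to 1.84) and 1.90 in NMF (1.74 to 2.09). They were 1.45 in GFP+ EpCAM+ (1.40 to 1.50), 1.44 in GFP+ EpCAM- (1.38 to 1.51), 1.52 in GFP- EpCAM+ (1.46 to 1.59) and 2.45 in GFP- EpCAM- (2.28 to 2.64). The ratio was highest in pCAF in the first table and in GFP- EpCAM- in the second. These libraries also had the highest fibroblast, pericyte and smooth muscle (1226 and 4119 CPM) and leukocyte (99.7 and 350 CPM) marker sums of their tables, while NMF, with 38101 CPM of fibroblast markers, had a ratio close to that of sCAF, with 247 CPM. Their part in the ratio was not tested. Counts of Anxa1 per count of its partner S100a11 were 1.82 in pCAF, 2.44 in sCAF and 2.18 in NMF. They were 14.4 in GFP+ EpCAM+ (12.7 to 16.4), 10.3 in GFP+ EpCAM-, 8.94 in GFP- EpCAM+ and 5.62 in GFP- EpCAM- (4.85 to 6.53), and the tables were made separately.

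**Figure D5:**
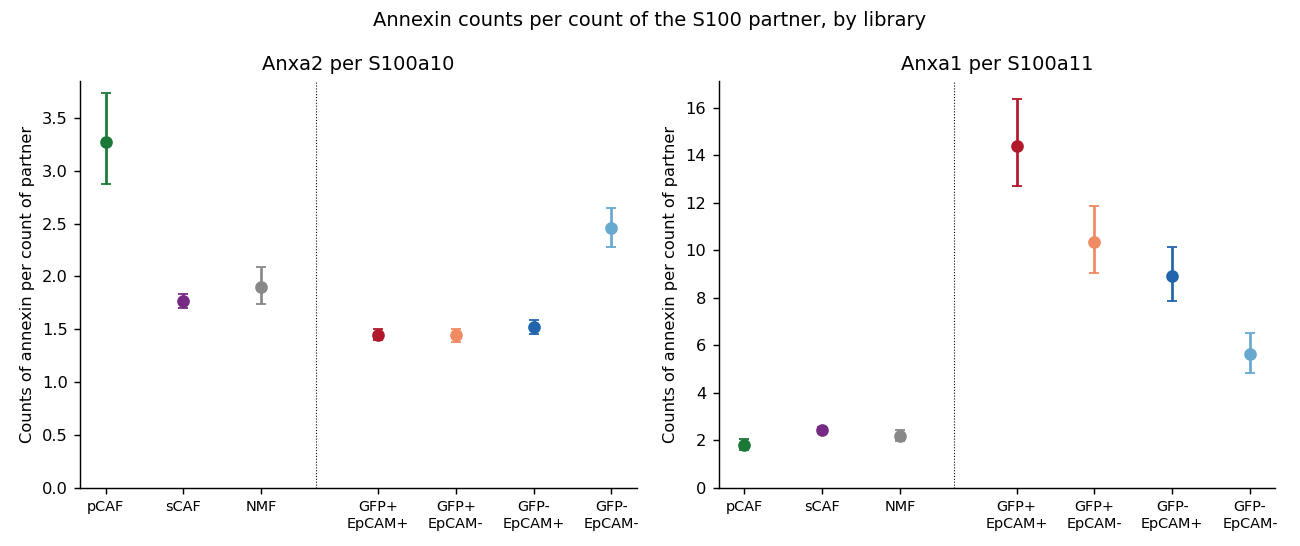
Counts of Anxa2 per count of S100a10 (left) and of Anxa1 per count of S100a11 (right) in each library, with exact 95% counting intervals and a dotted line between the tables. Anxa2 per S100a10 is highest in pCAF (3.27) and in GFP- EpCAM- (2.45) of their tables.

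Other genes that act with annexins went their own ways. Of 9 genes of plasminogen activation at the cell surface, where Anxa2 acts as a receptor, 4 of 7 tested were called higher in pCAF than in NMF, against 7.58% of all genes. Plaur, the urokinase receptor, was 14.2-fold higher (8.59 to 24.7) and Serpine2, a serine protease inhibitor, 11.8-fold (9.25 to 15.1). In sCAF relative to NMF 1 of 6 was higher (Plaur, 7.60-fold, 4.78 to 12.8) and 2 lower (Plat and Plau), against 15.9% and 17.3% of all genes. In pCAF relative to sCAF 5 of 7 were higher, against 11.5% of all genes. Plg and Eno1 were listed at 0 in the first table, and since Eno1 encodes a glycolytic enzyme that cells in general use, its 0 may not mean absence of its transcript. The formyl peptide receptor genes Fpr1, Fpr2 and Fpr3, through which Anxa1 protein signals, had at most 1 count in any library of the first table. Those sorts excluded CD45+ cells, so levels of these receptor genes in leukocytes were not measured. Of the 8 other genes of Anxa1 and glucocorticoid signalling, 3 were called lower and 1 higher in pCAF than in NMF, and 5 lower and none higher in sCAF than in NMF. Of all genes, 7.91% were lower and 7.58% higher in pCAF than in NMF, and 17.3% lower and 15.9% higher in sCAF than in NMF. Nr3c1, the glucocorticoid receptor gene, was among them, at ratios of 0.0728 (0.0234 to 0.173) in pCAF and 0.189 (0.145 to 0.244) in sCAF.

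Genes of plasma membrane repair were mostly uncalled. Of 12 tested, 3 were lower in pCAF than in NMF (Ehd2, Cav1 and Dysf), where 7.91% of all genes were lower. Cav1 had 7 counts and Dysf 5 counts in pCAF. Ehd2, Cav1 and Dysf were also lower and Myof higher in sCAF than in NMF, shares near those of all genes (17.3% lower and 15.9% higher). Endothelial marker sums were 49.9 CPM in pCAF, 479 in sCAF and 2315 in NMF. Adipocyte sums were 2.49, 75.7 and 1937 CPM in the same order, and the part of either was not tested. Dysf, which encodes the membrane repair protein dysferlin, stood at 294 CPM in GFP- EpCAM-, and its ratio to that library was 0.0375 in GFP- EpCAM+ (0.0220 to 0.0601) and 0.00818 in GFP+ EpCAM- (0.00264 to 0.0193). Cav1, the caveolin gene, was lower in the same comparisons, at 0.0651 and 0.0370. They were the 2 of 12 called there, where 12.7% and 14.1% of all genes were lower. Endothelial marker sums moved with Dysf and Cav1, at 183 CPM in GFP- EpCAM+, 62.5 in GFP+ EpCAM- and 8376 in GFP- EpCAM-. Fibroblast, pericyte and smooth muscle, and adipocyte sums were also highest in GFP- EpCAM-, at 4460.5, 4119 and 2585 CPM. The part of each was not tested. A list of 7 genes held calcium-binding partners of Anxa7 and Anxa11 and the coat-protein partners of those calcium-binding proteins. Pdcd6, the gene of ALG-2, was 2.85-fold higher in sCAF than in NMF (2.36 to 3.48), 1 of 7 against 15.9% of all genes. The list gave no other call outside pCAF relative to sCAF, where Sec23a was higher and Pdcd6 lower. Each was 1 of 7, near the 11.5% of all genes called higher and the 11.2% called lower there.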

How the data were processed

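The authors deposited 2 tables of raw counts, whole numbers for each gene name. STAR, HTSeq, cutadapt, bcl2fastq, DESeq2 and build mm10 are named in the submitters' processing notes, without roles or versions. Strand handling and collapsing by molecular identifier are not stated there. Intervals cover counting error only, and are too narrow even for that if duplicate reads were not collapsed. Names turned into dates (27 and 21, between 0.152% and 0.198% of counts) were left out. TMM effective library sizes came from edgeR 4.0.16 (R 4.3.3), within each table, and exact 95% intervals from scipy 1.17.1 (Python 3.11.15). A library at 0 was set to 3 counts, and no ratio was taken when both had 3 or fewer. The method was checked on counts simulated with counting error only, which cannot show how it fares with variation between libraries. Alternatives were DESeq2 1.42.0 size factors, scaling by totals, TMM without ribosomal protein genes, a minimum of 100 counts or none, a 4-fold rule and, added after seeing the data, TMM factors without sCAF. All members were described, and nearest genes were named for the 3 members with the widest range, with some genes not reported here. The members and lists were chosen with earlier results of these data known. Gene positions are from GENCODE M21 (GRCm38, the assembly that mm10 names). Cavin1 was not listed.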

Additional observations from a re-analysis of the deposited data

Results flagged for a closer look

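Anxa2 moved in opposite directions under the GFP contrast. Its ratio was 1.29 in EpCAM- cells (GFP+ over GFP-, counting interval 1.23 to 1.35) and 0.947 in EpCAM+ cells (0.914 to 0.980). Each interval lies on its own side of 1, and neither ratio reached 2-fold. The ratio in EpCAM+ cells changed sign with total counts, at a log2 value of 0.05. With 1 library per group the difference was not tested.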

How the results depend on the processing

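Over 6 other settings, 327 of 335 ratios of single annexins kept their call status, 8 lost the call, and no called ratio changed sign. Many of these could not change. A count minimum alters neither a ratio nor its interval, and a ratio uncalled at 2-fold stays uncalled at 4-fold. The 8 losses fell on Anxa2 and Anxa5 in the comparisons with NMF and on Anxa3 in GFP- EpCAM+ versus GFP- EpCAM-. Scaling by total counts left 1 annexin called higher in pCAF versus NMF (3 before) and gave annexin medians of 0.35 there, 0.55 for the GFP contrast in EpCAM- cells and 0.17 in EpCAM+ cells, as it moved the median of all genes to -0.41, 0.15 and 0.14. DESeq2 size factors left 1 called, in place of 2, in GFP- EpCAM+ versus GFP- EpCAM-. The 4-fold rule left 1, Anxa8, in that comparison and in pCAF and sCAF versus NMF. At least 100 counts took out Anxa8 in pCAF versus NMF, for an annexin median of 0.22 against -0.06 for all genes. Leaving sCAF out of the scaling, chosen after seeing the data, left the scaling of pCAF to NMF as it was and so tested nothing. Among ratios short of a call, signs turned with total counts for Anxa1, Anxa2 and Anxa3 in GFP+ EpCAM+ versus GFP- EpCAM+, Anxa7 in GFP+ EpCAM- versus GFP- EpCAM-, and Anxa4 and Anxa8 in pCAF versus sCAF. They turned with DESeq2 size factors for Anxa1 in GFP+ EpCAM+ versus GFP- EpCAM+ and for Anxa1, Anxa2, Anxa6 and Anxa7 in pCAF versus sCAF. Depth limits Anxa8 and Anxa4 in pCAF, at 19 and 26 counts. No paired analysis was possible because each group has 1 library.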

Other observations

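Anxa9, an annexin outside the 9 described, had low counts in both tables. It had 47 counts in GFP+ EpCAM+ (18.9 CPM), 32 in GFP+ EpCAM- (15.4 CPM), 33 in GFP- EpCAM+ (20.2 CPM) and 3 in GFP- EpCAM- (2.33 CPM). In the first table it had 0 counts in pCAF, where 3 counts are 7.48 CPM, 54 in sCAF (20.3 CPM) and 13 in NMF (10.6 CPM). Anxa9 overlaps Mindy1 on the other strand, so its counts are uncertain.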
